A study of Rattus norvegicus with 6 samples.

Results

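The genes described here are 10 members of the integrated stress response and of serine synthesis, taken by symbol from the 33509 genes of the deposited count table: Atf4, Atf5, Ddit3, Trib3, Asns, Chac1, Sesn2, Phgdh, Psat1 and Psph. They were measured by poly(A) RNA-seq of myocardial tissue from Sprague-Dawley rats in 6 libraries. The 3 MOD libraries came from rats with a modelled acute myocardial infarction, and the 3 XHT libraries came from the same model given XHT, which the series title names as Xinhuitong. No group of uninfarcted hearts was analysed here, so each difference below is between infarcted hearts with and without XHT. The labels gave no dose, time after infarction, age, region of the heart or statement that the libraries came from separate animals, so p-values cover the spread among these 6 libraries alone, which may be technical. Total counts were 16550007 to 17724689 per library, and 14488 genes, the 10 members among them, had enough counts to be tested.

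The integrated stress response begins when a kinase phosphorylates the translation factor eIF2α. General translation then slows, while the mRNA of the transcription factor ATF4 is translated more, so that much of ATF4's control lies at the level of protein and is not visible in mRNA counts. ATF4 turns on genes for amino acid transport and synthesis, among them asparagine synthetase (Asns) and the enzymes that make serine from a glycolytic intermediate (Phgdh, Psat1 and Psph, in that order of reaction). It also turns on its relatives and partners Atf5 and Ddit3 (CHOP), and genes that limit or end the response, among them the pseudokinase Trib3. In heart muscle the response is known to accompany mitochondrial stress, and serine feeds the folate-bound one-carbon pathway.

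ATF4 with a C/EBP partner binds a composite element that can be written TGATGNAA, or TTNCATCA on the opposite strand. In the RefSeq promoter windows of the GRCr8 rat assembly, from 250 bases before to 50 after each gene's start, these letters were found on either strand in 2 of the 10 members, Trib3 and Chac1. They were found in 1332 of all 33469 promoter windows, or 3.98%. The 250 bases before the start are shown for these members and for Atf4 and Phgdh, the other members that passed the test below; each runs 5′ to 3′ on the gene's own strand, and capitals mark the element. In Trib3 (chr3:161275534-161275783, minus strand) the element begins 21 bases before the start. In Chac1 (chr3:126795881-126796130, plus strand) it begins 167 bases before the start. The windows of Atf4 (chr7:113684431-113684680, plus strand) and Phgdh (chr2:188624790-188625039, minus strand) do not hold these letters, which says nothing of sites elsewhere.
Trib3: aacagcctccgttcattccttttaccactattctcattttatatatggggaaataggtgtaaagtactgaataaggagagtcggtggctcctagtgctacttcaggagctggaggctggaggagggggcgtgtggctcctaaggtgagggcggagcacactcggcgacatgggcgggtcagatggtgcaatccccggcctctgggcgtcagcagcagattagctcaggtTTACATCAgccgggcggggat
Chac1: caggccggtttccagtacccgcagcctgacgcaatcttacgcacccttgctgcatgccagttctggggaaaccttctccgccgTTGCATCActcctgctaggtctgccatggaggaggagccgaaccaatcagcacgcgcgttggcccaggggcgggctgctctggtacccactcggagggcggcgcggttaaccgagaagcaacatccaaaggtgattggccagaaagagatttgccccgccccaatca
Atf4: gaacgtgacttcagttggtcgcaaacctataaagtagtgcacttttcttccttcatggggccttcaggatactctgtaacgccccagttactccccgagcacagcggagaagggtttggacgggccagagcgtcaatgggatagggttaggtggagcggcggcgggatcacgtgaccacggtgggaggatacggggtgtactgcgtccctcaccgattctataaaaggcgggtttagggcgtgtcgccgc
Phgdh: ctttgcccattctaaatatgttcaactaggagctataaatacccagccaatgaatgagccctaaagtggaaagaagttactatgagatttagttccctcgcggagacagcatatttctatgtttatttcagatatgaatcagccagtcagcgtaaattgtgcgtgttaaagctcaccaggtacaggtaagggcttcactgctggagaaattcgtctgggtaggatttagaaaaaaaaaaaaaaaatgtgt

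In the XHT libraries the transcription factor Atf4 and its target Trib3 were higher and Phgdh, the first enzyme of serine synthesis, was lower. Atf4 was 1.95-fold and Trib3 3.57-fold higher in the mean of XHT than in that of MOD, and Phgdh was 3.90-fold higher in the mean of MOD. Atf5, Ddit3, Asns, Chac1, Sesn2, Psat1 and Psph did not pass the test. Thus 2 members rose and 1 fell, 3 of 10, by the quasi-likelihood test of edgeR at a Benjamini-Hochberg adjusted p under 0.05. Over all tested genes 28.5% were called, 12.4% higher and 16.1% lower, so the share of members called was close to that of the whole table. The groups did not overlap for 6 members, 2 with XHT above MOD and 4 with XHT below, against 51.3% of all tested genes, 24.7% with XHT above and 26.6% below. The median log2 fold change of the members was -0.53, against -0.02 for all tested genes. The split by direction depended on scaling: 1792 genes were higher and 2336 lower with TMM, and 925 higher and 4320 lower when libraries were scaled to their total counts, which moved the median over all genes to -0.42 on the log2 scale. With that scaling 1 member, Trib3, was called higher and 5, Phgdh, Psat1, Psph, Asns and Sesn2, lower, so values with it are to be read against that shift.

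**Figure D1:**
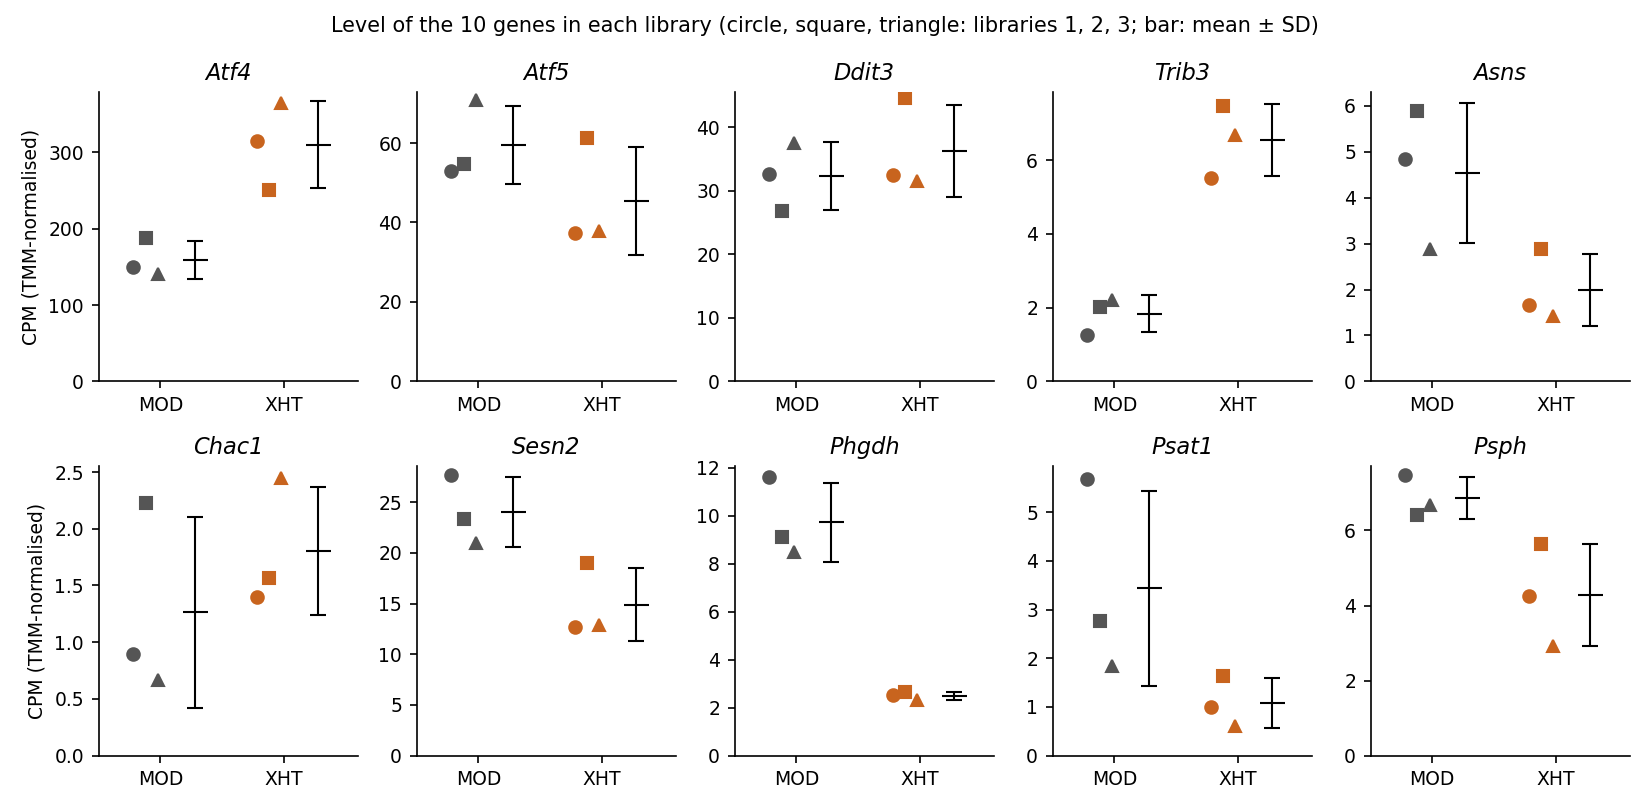
Level of each of the 10 genes in CPM (counts scaled to library size, TMM-normalised) in the 3 MOD and the 3 XHT libraries; circles, squares and triangles are libraries 1, 2 and 3 and the bars give the mean ± SD of 3 libraries. Each panel has its own axis from 0; the XHT values lie above the MOD values for Atf4 and Trib3 and below them for Phgdh, Psat1, Psph and Sesn2, and the groups overlap for Atf5, Ddit3, Asns and Chac1.

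Atf4 encodes the transcription factor at the centre of the response (file coordinates chr7:121480723-121482781, plus strand, whose build the sources used here do not give, as for the other members). Its level, in CPM (counts scaled to library size by TMM), was 149.4, 187.7 and 140.7 CPM in MOD libraries 1 to 3 and 314.8, 250.3 and 364.7 in XHT libraries 1 to 3. Every XHT library was above every MOD library, and the lowest XHT value was XHT 2. The means were 159.3 ± 25.01 CPM in MOD and 309.9 ± 57.3 CPM in XHT (SD, n = 3 each), a log2 fold change of 0.96 ± 0.24 (SE) for which the quasi-likelihood test of edgeR gave a Benjamini-Hochberg adjusted p of 0.0281. These values rest on 2735 to 5359 counts per library. The call was lost without MOD 1 (adjusted p = 0.106), MOD 2 (0.0676), XHT 1 (0.0898) or XHT 3 (0.0896), with log2 fold changes of 0.84 to 1.10 over the 6 libraries left out in turn. With libraries scaled to their total counts the log2 fold change was 0.55 and its adjusted p was 0.112.

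Trib3 encodes a pseudokinase that is induced by ATF4 and CHOP and that can hold back ATF4 (chr3:147813473-147819571, minus strand). It was at 1.26, 2.03 and 2.21 CPM in MOD libraries 1 to 3 and at 5.52, 7.47 and 6.67 CPM in XHT libraries 1 to 3. The groups were well apart, since the lowest XHT value was above the highest MOD value by more than the whole spread of either group. The means were 1.83 ± 0.50 and 6.55 ± 0.98 CPM (SD, n = 3 each), a log2 fold change of 1.83 ± 0.32 (SE; edgeR, Benjamini-Hochberg adjusted p = 0.0137). Trib3 was a gene of few reads, with 24, 41 and 43 counts in MOD and 83, 119 and 98 in XHT. The exact Poisson 95% intervals, which cover counting error only, ran from 15.4 to 35.7 counts for MOD 1, the lowest library, and from 66.1 to 102.9 counts for XHT 1, the lowest of its group. The call was lost narrowly without MOD 1 (adjusted p = 0.0519), XHT 1 (0.0566) or XHT 3 (0.0555), with log2 fold changes of 1.62 to 2.00 over the 6 libraries left out in turn.

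Chac1 encodes a glutathione-degrading enzyme and, like Trib3, is a known target of the response whose promoter window holds the composite element. It was at 0.90, 2.22 and 0.67 CPM in MOD libraries 1 to 3 and at 1.40, 1.57 and 2.45 CPM in XHT libraries 1 to 3. MOD 2 was above XHT 1 and XHT 2, so the groups overlapped. The log2 fold change was 0.51 ± 0.53 (SE; edgeR, Benjamini-Hochberg adjusted p = 0.484), on 13 to 45 counts per library (chr3:111160205-111163425, plus strand).

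Among the transcription factors that act beside ATF4, the values of Ddit3 and Atf5 overlapped between groups. Ddit3 (CHOP), which links prolonged stress to cell death, was at 32.6, 26.8 and 37.6 CPM in MOD libraries 1 to 3 and at 32.5, 44.6 and 31.6 CPM in XHT libraries 1 to 3 (chr7:70580198-70585084, plus strand). XHT 1 and XHT 3 lay within the MOD range and XHT 2 above it. The log2 fold change was 0.17 ± 0.21 (SE; edgeR, Benjamini-Hochberg adjusted p = 0.563), and it was -0.21 with total count scaling. Ddit3 overlaps the gene Mars by 72 bases on the opposite strand, and the sources used here do not say whether counting used the strand. Atf5, a close relative of ATF4, was at 52.9, 54.6 and 70.9 CPM in MOD libraries 1 to 3 and at 37.4, 61.2 and 37.8 CPM in XHT libraries 1 to 3 (chr1:100808241-100810522, minus strand). XHT 2 lay among the MOD values while XHT 1 and XHT 3 lay below them. The log2 fold change was -0.39 ± 0.24 (SE; edgeR, Benjamini-Hochberg adjusted p = 0.251).

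Asns and Sesn2, both known targets of ATF4, had lower means in XHT without passing the test. Asns, which makes asparagine, was at 4.85, 5.88 and 2.88 CPM in MOD libraries 1 to 3 and at 1.66, 2.89 and 1.43 CPM in XHT libraries 1 to 3 (chr4:33743364-33761163, minus strand). The groups overlapped narrowly, with XHT 2 just above MOD 3. The means were 4.54 ± 1.52 and 1.99 ± 0.78 CPM (SD, n = 3 each), with a log2 fold change of -1.18 ± 0.42 (SE; edgeR, Benjamini-Hochberg adjusted p = 0.0685). Sesn2, a sestrin that restrains mTORC1 when leucine is short, was at 27.7, 23.3 and 20.9 CPM in MOD libraries 1 to 3 and at 12.7, 19.0 and 12.9 CPM in XHT libraries 1 to 3 (chr5:150684133-150704117, minus strand). Every XHT library was below every MOD library. The means were 24.0 ± 3.44 and 14.9 ± 3.59 CPM (SD, n = 3 each), with a log2 fold change of -0.69 ± 0.22 (SE; edgeR, Benjamini-Hochberg adjusted p = 0.0561). Without MOD 3 both passed the same edgeR test, Asns at an adjusted p of 0.0211 and Sesn2 at 0.0338, and Sesn2 also passed without XHT 2 at 0.0327. Asns passed by DESeq2's Wald test at an adjusted p of 0.0479, where Sesn2 was at 0.0628.

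The 3 enzymes of serine synthesis lay below MOD in every XHT library, as did 26.6% of all tested genes. Of these 3 enzymes only Phgdh passed the test. Phgdh, which takes 3-phosphoglycerate out of glycolysis and commits it to serine, was at 11.6, 9.09 and 8.49 CPM in MOD libraries 1 to 3 and at 2.53, 2.64 and 2.31 CPM in XHT libraries 1 to 3 (chr2:200484246-200513564, minus strand). The XHT libraries were close to each other, and the highest of them was under the lowest MOD library by more than the spread within either group. The means were 9.72 ± 1.65 and 2.49 ± 0.16 CPM (SD, n = 3 each), a log2 fold change of -1.96 ± 0.25 (SE) for which the quasi-likelihood test of edgeR gave a Benjamini-Hochberg adjusted p of 0.00972. Phgdh had 165 to 220 counts per MOD library and 34 to 42 per XHT library, and its p ranked 134 among the 14488 tested genes. Its call was lost without XHT 1 (adjusted p = 0.0549), where its log2 fold change was -1.96. Over the 6 libraries left out in turn the log2 fold change ran from -2.03 to -1.82, and the call was kept in 5 of 6.

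Psat1, the aminotransferase of the next step, was at 5.69, 2.77 and 1.85 CPM in MOD libraries 1 to 3 and at 0.997, 1.63 and 0.61 CPM in XHT libraries 1 to 3 (chr1:233124092-233145941, minus strand). MOD 1 stood well above the other libraries, and the gap between MOD 3 and XHT 2 was small. The means were 3.44 ± 2.00 and 1.08 ± 0.52 CPM (SD, n = 3 each), with a log2 fold change of -1.66 ± 0.55 (SE; edgeR, Benjamini-Hochberg adjusted p = 0.0603), on 9 to 108 counts per library. It passed at an adjusted p of 0.0184 without MOD 3, at 0.0280 by DESeq2's Wald test and at 0.0300 with total count scaling, and its log2 fold change was -1.09 without MOD 1. Psph, the phosphatase that releases serine, was at 7.48, 6.42 and 6.69 CPM in MOD libraries 1 to 3 and at 4.26, 5.65 and 2.93 CPM in XHT libraries 1 to 3 (chr12:30514050-30526561, plus strand). XHT 2 came nearest to the MOD values. The means were 6.86 ± 0.55 and 4.28 ± 1.36 CPM (SD, n = 3 each), with a log2 fold change of -0.68 ± 0.30 (SE; edgeR, Benjamini-Hochberg adjusted p = 0.122).

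**Figure D2:**
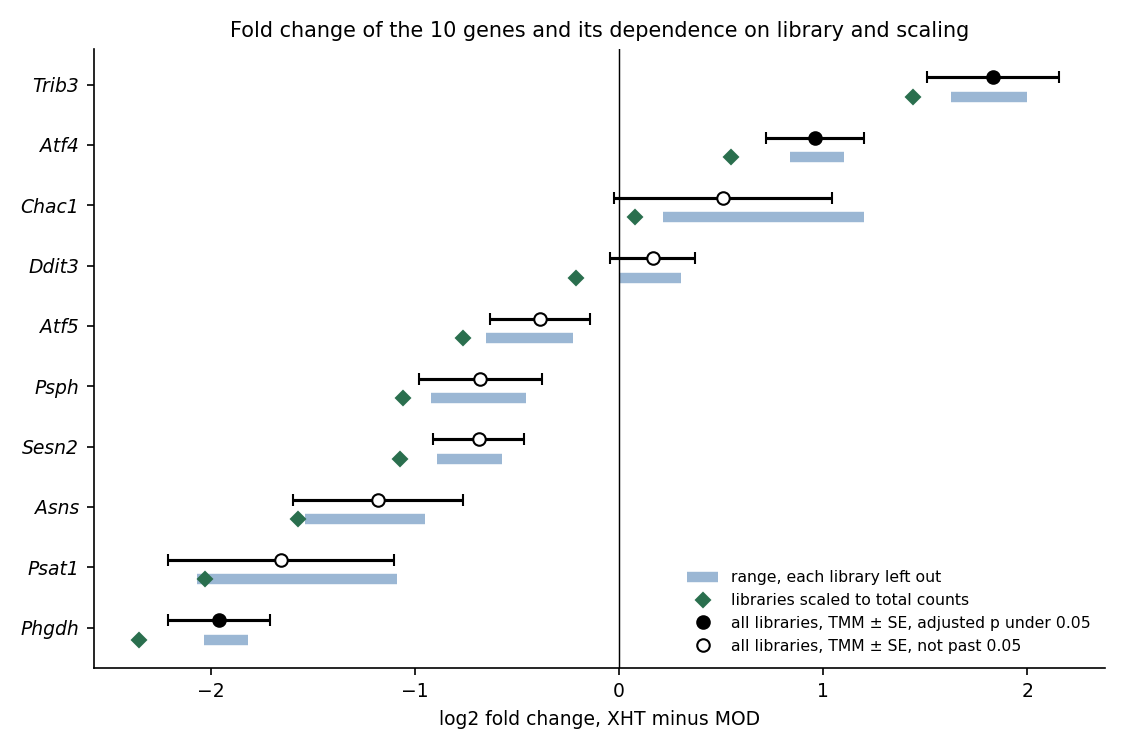
Log2 fold change of each of the 10 genes, XHT minus MOD, from the fit of all 6 libraries with TMM scaling (circles ± SE, filled where the adjusted p was under 0.05), the range when each library was left out in turn (blue bars) and the value with total count scaling (green diamonds). Trib3, Atf4 and Phgdh carry filled circles; total count scaling moves each gene to the left, and Ddit3 to -0.21.

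The authors' deposited table gave an adjusted p under 0.05 for 5 of the 10 members and for 5334 of the 19690 genes it compared. In the authors' deposited table Atf4 had a log2 fold change of 0.99 (adjusted p = 0.00135), Trib3 of 1.87 (1.36e-05) and Phgdh of -1.93 (5.04e-08). The authors' deposited table also called Psat1 (log2 fold change -1.63, adjusted p = 0.0290) and Asns (-1.15, 0.0494), which edgeR's test did not call.

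Ratios between members within a library do not depend on how libraries were scaled, and they were chosen here after the values were seen, as a description with no test. Per base of gene length, the log2 ratio of Atf4 to Phgdh was 4.04, 4.72 and 4.41 in MOD libraries 1 to 3 and 7.32, 6.92 and 7.66 in XHT libraries 1 to 3. The log2 ratio of Trib3 to Phgdh was -3.30, -2.27 and -2.04 in MOD and 1.03, 1.40 and 1.43 in XHT, so Trib3 was the lower of the pair in each MOD library and the higher in each XHT library. Within the serine pathway the log2 ratio of Phgdh to Psph was 0.08, -0.05 and -0.21 in MOD and -1.30, -1.65 and -0.89 in XHT. Phgdh and Psph were thus near parity per length in MOD, while Phgdh was the lower in XHT. The log2 ratio of Atf4 to its relative Atf5 was 1.04, 1.33 and 0.54 in MOD and 2.62, 1.58 and 2.82 in XHT.

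**Figure D3:**
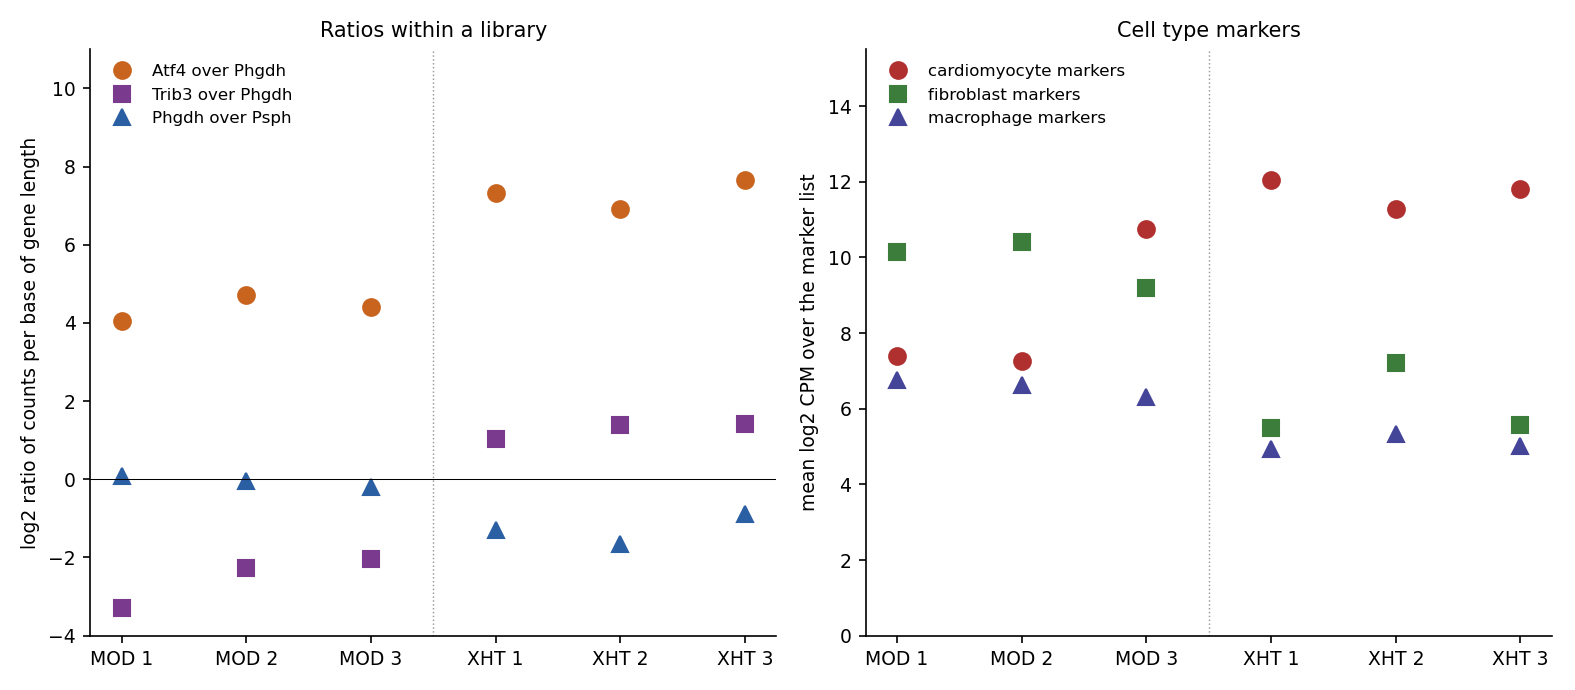
Left, log2 ratio of counts per base of gene length within each library for Atf4 over Phgdh, Trib3 over Phgdh and Phgdh over Psph; right, mean log2 CPM over the cardiomyocyte, fibroblast and macrophage marker lists in each library, with MOD and XHT parted by a dotted line. The ratios do not overlap between MOD and XHT; the mean log2 CPM of cardiomyocyte markers in MOD 3, 10.7, lies nearer to the XHT libraries than to MOD 1 and MOD 2.

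Levels were compared between genes in the deposited FPKM, which is per length. Atf4, Atf5 and Ddit3 led the order in both groups, with median FPKM of 102.7, 52.2 and 34.1 in MOD and 221.9, 37.0 and 34.9 in XHT. In MOD, Atf4 did not overlap Atf5 and Atf5 did not overlap Ddit3, but in XHT the values of Atf5 (36.0 to 58.9) and Ddit3 (34.3 to 47.8) overlapped. Sesn2, Psph and Phgdh came next in MOD at 6.13, 5.27 and 4.96 FPKM and overlapped from one neighbour to the next. Asns (2.11), Trib3 (1.03), Psat1 (0.96) and Chac1 (0.55) were lowest in MOD. Phgdh did not overlap Asns and Asns did not overlap Trib3, while Trib3 overlapped Psat1 and Psat1 overlapped Chac1. In XHT, Trib3 was 5 in the order at 3.47 FPKM, where it overlapped Sesn2 (3.48) and Psph (3.44). Phgdh was 7 in the XHT order at 1.39 FPKM, clear of Psph above it and overlapping Chac1 (0.99) below it. Chac1 and Asns (0.74) overlapped in XHT, and Psat1 (0.35) lay below both.

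The cell type markers differed between the groups, beside 12.4% called higher and 16.1% called lower over all tested genes. Set beside the members' results, the values of the markers were as follows. Of the fibroblast markers 0 were higher and 8 of 10 lower in XHT, with a summed level of 22868 to 61680 CPM in MOD and 1787 to 4557 CPM in XHT. Of the macrophage markers 1 was higher and 7 of 10 lower, with sums of 1769 to 3238 CPM in MOD and 646.3 to 904.5 CPM in XHT. Of the dividing-cell markers 6 of 8 were lower, with sums of 77.9 to 196.1 and 10.4 to 36.7 CPM. Of the 9 tested cardiomyocyte markers 1 was higher and 0 lower, but MOD 1 and MOD 2 summed to 2477 and 2244 CPM, MOD 3 to 24887 CPM and the XHT libraries to 34468 to 61751 CPM. No listed marker of cardiomyocytes, fibroblasts or macrophages was at 0 in any library. In bulk tissue fewer cells of a type and less RNA per cell cannot be told apart, and the part of the cell makeup in the members' differences was not tested.

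On the log2 CPM scale, the cardiomyocyte marker mean of MOD 3 lay 78.1% of the way from the mean of MOD 1 and MOD 2 to the mean of XHT, and its fibroblast and macrophage means lay 26.1% and 24.5% of the way. Phgdh in MOD 3 lay 13.6% of the way and Trib3 22.5%, while Atf4 in MOD 3 was on the far side of MOD 1 and MOD 2, at -28.8%. These are positions of 1 library and no test. They were computed for the 3 called members alone, and that choice favours genes whose MOD 3 lies near MOD 1 and MOD 2. They therefore cannot show whether the members followed the markers, and the other 7 members were not placed. Endothelial markers, 0 of 7 of which were called, summed to 1065 to 1883 CPM in MOD and 1560 to 1809 CPM in XHT. Smooth muscle markers (1 of 6 higher, 2 lower) summed to 2058 to 2148 CPM in MOD and 2397 to 3680 CPM in XHT. Yet 5 of these 6 had a negative log2 fold change, with a median of -0.89, so the sum moved against most of the list. Des had 143808 counts over all libraries and Tagln, the next, 34962, so the sum is weighted to Des. Schwann cell markers (1 of 8 higher, 1 lower) summed to 66.2 to 91.6 and 41.0 to 68.0 CPM. T lymphocyte markers (0 of 7 tested higher, 2 lower) summed to 78.6 to 83.0 and 40.9 to 53.8 CPM, with a median log2 fold change of 0.02. Here Cd4 had 4931 counts over all libraries and Cd8a, the next, 885, so this sum is weighted to Cd4. The T lymphocyte marker Trat1 was at 0 in 1 library.

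The genes that start and stop the response gave 2 higher and 1 lower of 19 tested, against 12.4% and 16.1% of all tested genes. Their median log2 fold change was 0.15. Ppp1r15a (GADD34), which brings a phosphatase to eIF2α and so ends the response, was at 34.8, 45.0 and 51.2 CPM in MOD libraries 1 to 3 and at 161.4, 106.4 and 198.3 CPM in XHT libraries 1 to 3. Every XHT library was above every MOD library, and the log2 fold change was 1.83 ± 0.28 (SE; edgeR, Benjamini-Hochberg adjusted p = 0.0112). Its constitutive counterpart Ppp1r15b was at 58.9 ± 8.61 and 64.1 ± 8.46 CPM (SD, n = 3 each). Of the eIF2α kinases, Eif2ak2 (PKR, activated by double-stranded RNA) fell from 53.0 ± 18.1 to 23.3 ± 5.75 CPM, with a log2 fold change of -1.19 ± 0.30 (edgeR, Benjamini-Hochberg adjusted p = 0.0284). The other kinases did not pass. Eif2ak3 (PERK, of the endoplasmic reticulum) had means of 31.7 and 21.3 CPM, Eif2ak4 (GCN2, which senses uncharged tRNA) 18.5 and 13.6 CPM, and Eif2ak1 (HRI, a kinase of haem and mitochondrial stress) 26.6 and 34.5 CPM in MOD and XHT. The log2 fold change of Eif2ak1 was 0.38, and -0.02 with total count scaling. Eif2b3, a subunit of the exchange factor that phosphorylated eIF2 blocks, rose from 7.93 to 13.5 CPM (edgeR, Benjamini-Hochberg adjusted p = 0.0463), a call lost with total count scaling. That scaling gave 1 gene of this list higher and 4 lower, against 925 and 4320 of all 14488 tested genes. The median of the list with it was -0.25, against -0.42 for all tested genes. The list held 0 calls without MOD 1 or XHT 1, 1 higher and 1 lower without MOD 2, 1 and 0 without XHT 3, 2 and 2 without XHT 2, and 3 and 4 without MOD 3. Among 14717 to 15012 tested genes these fits gave 128 higher and 375 lower without MOD 1 and 4 and 4 without XHT 1. They gave 227 and 570 without MOD 2 and 148 and 288 without XHT 3. Without XHT 2 they gave 1472 and 2135, and without MOD 3 they gave 3487 and 3421.

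Among 24 further tested targets of ATF4 and CHOP, 7 were higher and 5 lower in XHT, against 12.4% and 16.1% of all tested genes. Their median log2 fold change was 0.12, and the known targets were called in both directions. Herpud1, of endoplasmic reticulum degradation, rose from 106.2 ± 13.6 to 340.3 ± 86.1 CPM, with a log2 fold change of 1.68 ± 0.25 (edgeR, Benjamini-Hochberg adjusted p = 0.0112). Slc3a2, the heavy chain of amino acid exchangers, rose from 85.1 ± 17.3 to 336.1 ± 122.4 CPM, with a log2 fold change of 1.98 ± 0.33 (edgeR, Benjamini-Hochberg adjusted p = 0.0126). Eif4ebp1, a brake on cap-dependent translation, rose from 42.5 to 128.5 CPM (edgeR, Benjamini-Hochberg adjusted p = 0.0133). In the other direction, Vldlr, a lipoprotein receptor, fell from 84.6 to 39.9 CPM (edgeR, Benjamini-Hochberg adjusted p = 0.0159). Pck2, the mitochondrial phosphoenolpyruvate carboxykinase, fell from 25.98 to 8.23 CPM (edgeR, Benjamini-Hochberg adjusted p = 0.0246), and Jdp2, a bZIP repressor, from 43.1 to 24.5 CPM (adjusted p = 0.0302). Slc7a11, the cystine transporter that pairs with Slc3a2, had 60 counts over the MOD libraries and 7 over the XHT libraries, with 0 in XHT 1 (edgeR, Benjamini-Hochberg adjusted p = 0.0494). Slc3a2 and Slc7a11, whose proteins work together, were thus called in opposite directions. The call of Slc7a11 held in 7 of 13 alternatives and that of Slc3a2 in 11. With each of the 6 libraries left out in turn, these calls held in 2 fits and in 4.

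Several standard readouts of the response did not pass. Atf3, an early stress-induced repressor, was at 21.4, 25.2 and 21.0 CPM in MOD libraries 1 to 3 and at 11.7, 13.9 and 37.2 CPM in XHT libraries 1 to 3. XHT 3 was the highest of the 6 and XHT 1 and XHT 2 the lowest (edgeR, Benjamini-Hochberg adjusted p = 0.860). Ddit4, an inhibitor of mTORC1, had means of 102.7 and 234.6 CPM with overlapping groups (adjusted p = 0.107 by edgeR with Benjamini-Hochberg adjustment). The secreted stress factor Gdf15 had means of 4.06 and 1.95 CPM and Nupr1, a stress-induced chromatin protein, 2.05 and 1.10 CPM in MOD and XHT, both with overlapping groups. Nupr1 matched 2 identifiers, and the values are of the 1 with the most counts, 171 over all libraries. Fgf21, a hormone secreted in mitochondrial stress, had 43 counts in MOD and 12 in XHT and was too low to be tested. The list of targets held 0 calls without MOD 1, where all tested genes gave 128 higher and 375 lower. It also held 0 without XHT 1, where all tested genes gave 4 and 4. It held 3 higher and 0 lower without MOD 2 (all tested genes 227 and 570), and 2 and 0 without XHT 3 (148 and 288). It held 8 and 6 without MOD 3 (3487 and 3421), and 7 and 4 without XHT 2 (1472 and 2135). With total count scaling 4 were higher and 6 lower, against 925 and 4320 of all 14488 tested genes. The median of the targets was then -0.28, against -0.42 for all tested genes.

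**Figure D4:**
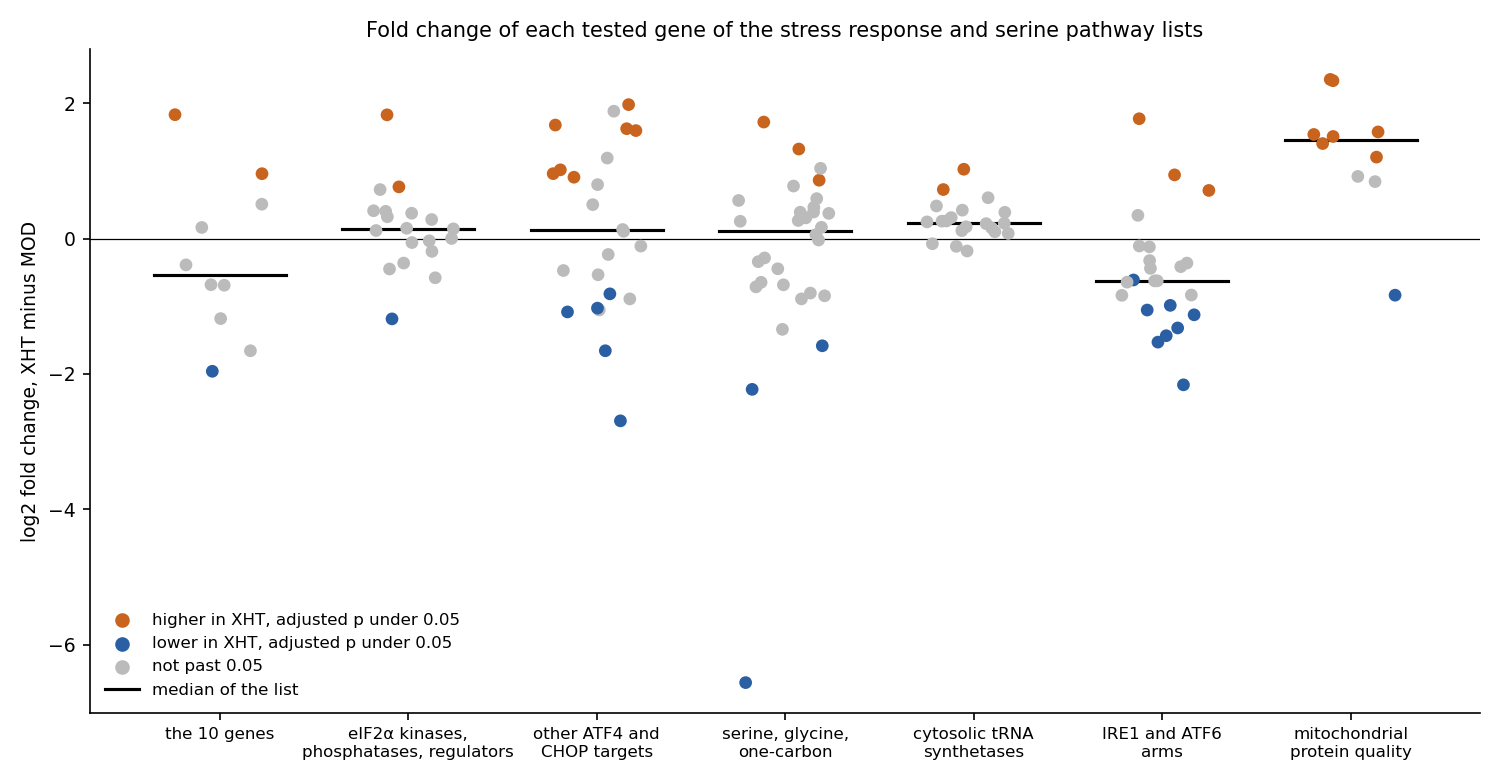
Log2 fold change, XHT minus MOD, of each tested gene in the pathway lists, with orange and blue for an adjusted p under 0.05 (higher and lower in XHT), grey for the rest and a line at the median of each list. The targets of ATF4 and CHOP are called in both directions, the point near -6.6 is Aldh1l2, and 7 of the 10 mitochondrial protein quality genes are orange.

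In the wider serine, glycine and one-carbon list 3 of 30 tested genes were higher and 3 lower, against 12.4% and 16.1% of all tested genes. The median log2 fold change of this list was 0.11. The largest fall was in Aldh1l2, the mitochondrial formyl-tetrahydrofolate dehydrogenase. It had 290, 482 and 115 counts in MOD libraries 1 to 3 and 0, 6 and 1 counts in XHT libraries 1 to 3. Its levels were 15.0 ± 8.95 and 0.15 ± 0.20 CPM (SD, n = 3 each; edgeR, Benjamini-Hochberg adjusted p = 0.0105), and a count of 0 in XHT 1 allows up to 3 counts, or 0.199 CPM. Sfxn1, the mitochondrial serine transporter, fell from 28.9 to 9.64 CPM (edgeR, Benjamini-Hochberg adjusted p = 0.0164). Pycr1, a proline synthesis enzyme, fell from 6.32 to 1.35 CPM (edgeR, Benjamini-Hochberg adjusted p = 0.0231). Dld and Gcsh, which belong to the mitochondrial glycine cleavage system (Dld also to pyruvate dehydrogenase), rose from 110.3 to 364.2 CPM and from 20.1 to 50.4 CPM (edgeR, Benjamini-Hochberg adjusted p = 0.0156 and 0.0225). In MOD 3 both were above MOD 1 and MOD 2, with Dld at 165.7 CPM and Gcsh at 29.6 CPM. Atic, of purine synthesis, rose from 15.1 to 27.5 CPM (edgeR, Benjamini-Hochberg adjusted p = 0.0300), a call lost with total count scaling. Shmt2 and Mthfd2, the mitochondrial enzymes that turn serine into one-carbon units and are known to rise with ATF4, did not pass, with means of 33.5 and 40.0 CPM and of 27.5 and 21.7 CPM in MOD and XHT. Without XHT 1 the list held 0 calls (all tested genes 4 higher and 4 lower). Without MOD 1, MOD 2 or XHT 3 it held 0 higher and 1 lower. All tested genes gave 128 and 375, 227 and 570, and 148 and 288 in those fits. Without MOD 3 the list held 6 and 6 (all tested genes 3487 and 3421), and without XHT 2 it held 4 and 2 (1472 and 2135). With total count scaling this list held 2 higher and 9 lower, against 925 and 4320 of all 14488 tested genes. Its median was then -0.28, against -0.42 for all tested genes.

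Cytosolic tRNA synthetases, many of them ATF4 targets, gave 2 higher and 0 lower of 20, against 12.4% and 16.1% of all tested genes. Their median log2 fold change was 0.24. Kars rose from 89.5 to 182.4 CPM and Iars from 25.4 to 42.1 CPM (edgeR, Benjamini-Hochberg adjusted p = 0.0237 and 0.0310). Both calls were lost with total count scaling, which gave 925 higher and 4320 lower over all 14488 tested genes. With it the median of the list was -0.16, against -0.42 for all tested genes. The list held 0 calls without MOD 1, MOD 2, XHT 1 or XHT 3, 4 higher without MOD 3, and 3 higher without XHT 2. In that order, the same fits gave 128, 227, 4, 148, 3487 and 1472 higher over all tested genes. They gave 375, 570, 4, 288, 3421 and 2135 lower.

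The other arms of the unfolded protein response gave 3 higher and 8 lower of 23, against 12.4% and 16.1% of all tested genes. Their median log2 fold change was -0.62. The sensor Ern1 (IRE1) rose from 19.9 ± 1.08 to 68.0 ± 30.1 CPM, with a log2 fold change of 1.77 ± 0.33 (edgeR, Benjamini-Hochberg adjusted p = 0.0152). The sensor Atf6 rose from 29.1 to 55.9 CPM and the chaperone partner Dnajb9 from 30.5 to 50.1 CPM (edgeR, Benjamini-Hochberg adjusted p = 0.0381 and 0.0202), and both calls were lost with total count scaling. Genes of protein entry and folding were among the 8 that fell. Sec61b, of the translocon, fell from 65.7 to 14.7 CPM (edgeR, Benjamini-Hochberg adjusted p = 0.0131). The disulphide isomerases Pdia6 and Pdia3 fell from 206.1 to 104.0 CPM and from 598.4 to 239.7 CPM (edgeR, Benjamini-Hochberg adjusted p = 0.0237 and 0.0261). The chaperone Hspa5 (BiP), with means of 394.8 and 307.4 CPM, and the transcription factor Xbp1, with 72.7 and 58.1 CPM, did not pass. The list held 0 calls without MOD 1, XHT 1 or XHT 3. In those fits all tested genes gave 128 higher and 375 lower, 4 and 4, and 148 and 288. The list held 0 higher and 1 lower without MOD 2 (all tested genes 227 and 570). It held 3 and 13 without MOD 3 (3487 and 3421), and 2 and 9 without XHT 2 (1472 and 2135). With total count scaling 1 gene was higher and 16 lower, against 925 and 4320 of all 14488 tested genes with the same scaling. The median of the list was then -1.01, against -0.42 for all tested genes.

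Genes of mitochondrial protein quality control gave 7 higher and 1 lower of 10 tested, against 12.4% and 16.1% of all tested genes. Their median log2 fold change was 1.46. Clpx, the unfoldase of a matrix protease, was at 35.4, 27.4 and 51.5 CPM in MOD libraries 1 to 3 and at 269.2, 151.1 and 164.2 CPM in XHT libraries 1 to 3. The groups were far apart, with a log2 fold change of 2.35 ± 0.33 (SE; edgeR, Benjamini-Hochberg adjusted p = 0.0106). Hspa9, the mitochondrial HSP70, rose from 62.8 ± 36.8 to 316.8 ± 79.1 CPM and Afg3l2, an inner membrane protease, from 46.4 to 134.9 CPM (edgeR, Benjamini-Hochberg adjusted p = 0.0154 and 0.0152). Htra2, a protease of the intermembrane space, fell from 39.3 to 22.0 CPM (edgeR, Benjamini-Hochberg adjusted p = 0.0223). Counts of the mitochondrial genome took 15.6% to 22.9% of each MOD library and 27.1% to 29.8% of each XHT library. With genes of the mitochondrial genome left out of the fit, the list again gave 7 higher and 1 lower, with a median of 1.46. With total count scaling it gave 7 and 1, with a median of 1.08, against 925 and 4320 of all 14488 tested genes. The summed level of the list was 414.7, 409.7 and 778.5 CPM in MOD libraries 1 to 3 and 1255 to 1579 CPM in XHT, and the 9 cardiomyocyte markers summed to 2477, 2244 and 24887 CPM in MOD libraries 1 to 3 and 34468 to 61751 CPM in XHT. MOD 3 was thus above MOD 1 and MOD 2 and below every XHT library in both sums, and the part of the cardiomyocyte share in the list's result was not tested. The list held 1 call or 0 when MOD 1, MOD 2, XHT 1 or XHT 3 was left out. In those fits all tested genes gave 128 higher and 375 lower, 227 and 570, 4 and 4, and 148 and 288. The list held 9 higher and 1 lower without MOD 3 (all tested genes 3487 and 3421), and 7 and 0 without XHT 2 (1472 and 2135).

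Over the 6 libraries, which fall into the 2 groups, log2 CPM of Trib3 and Phgdh had a Pearson r of -0.98, that of Atf4 and Trib3 0.87 and that of Atf4 and Ddit3 -0.02. Sesn2 and Psat1 had an r of 0.95 and Asns and Sesn2 0.94. These are descriptions over n = 6 libraries that share their groups and scaling. By the same measure, among 9013 other genes, the genes most like Atf4 were Sbds, Eps8, Lsm14a, Vwa9 and Itpkc (r of 0.990 to 0.993), and 455 genes had an r above 0.9. The genes most like Phgdh were AABR07011996.1, Erap1, Tmem18, Cdh11 and Flt4 (r of 0.996 to 0.998), and 1156 of 9014 had an r above 0.9.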

How the data were processed

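Poly(A)-selected RNA was sequenced in 3 MOD and 3 XHT libraries, with a strand-marking kit and molecular identifiers in the adapters, per the labels' protocols. Per the submitters' processing notes, the tools were featureCounts 1.5.0-p3, HISAT2 2.0.5, DESeq2 1.16.1 and StringTie 1.3.3b. The sources used here give neither the genome build, the strand setting of the counting nor whether identifiers were used to collapse copies. The deposited table holds, per the file headers, raw counts per gene and library, which were tested, and FPKM values with gene lengths, which served only to compare levels between genes. The authors' log2 fold changes and p-values are quoted only where their deposited table is named, and the deposited group means, a signal scale, were not used.

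From the counts, R 4.3.3 with edgeR 4.0.16 fitted XHT against MOD over all genes without covariates. Libraries were scaled by TMM and genes kept by filterByExpr at a minimum count of 10 and a minimum total of 15. The quasi-likelihood test was robust, and a Benjamini-Hochberg adjusted p under 0.05 counted as a call. CPM values are TMM-normalised; log2 CPM used a prior count of 2. The TMM factor ran from 1.10 to 1.23 over the MOD libraries and from 0.83 to 0.92 over the XHT libraries, so scaling bears on the balance of directions. No library repeated another: for each pair the chi-square of counts over genes was at least 42.6 per degree of freedom. A count of 0 allows up to 3 counts, or 0.148 to 0.204 CPM per library, and such limits cover counting error only. The script was tested on simulated data.

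The members and the gene lists were chosen with earlier results of these data known. All 10 members are named; from each pathway list up to 3 called genes of lowest p in each direction are named, with 18 genes given whatever their test. The listed symbols Bbc3, Hspe1, Ttn and Pecam1 matched no gene of the table and were not analysed here. Alternatives were other scalings, no filter, DESeq2 1.42.0, the replicate block, leaving out genes of the mitochondrial genome and leaving out each library; the legacy quasi-likelihood fit was added after seeing the data. Promoter sequences are RefSeq's, matched by symbol for 10 of 10 members; their GRCr8 coordinates were not mixed with those of the table.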

Additional observations from a re-analysis of the deposited data

How the results depend on the processing

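Of the members, 2 were called higher and 1 lower. With total count scaling 1 was higher and 5 lower, by DESeq2's Wald test 3 were lower, and with each library left out 0 to 2 were higher and 0 to 4 lower. Over all genes, 1792 were higher and 2336 lower; total count scaling gave 925 and 4320, and leaving out each library gave 4 to 3487 higher and 4 to 3421 lower. Without MOD 1 these counts were 128 and 375, without MOD 2 227 and 570, without MOD 3 3487 and 3421, without XHT 1 4 and 4, without XHT 2 1472 and 2135, and without XHT 3 148 and 288; the cause was not tested. The log2 fold change of Ddit3, 0.17, was -0.21 with total count scaling and, over the libraries left out in turn, from -0.002 (without XHT 2) to 0.303; the other 9 members kept their sign under the 13 alternatives. DESeq2 size factors, no count filter, leaving out genes of the mitochondrial genome and the legacy fit left the members' counts at 2 and 1.

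The labels do not say whether equal replicate numbers mark paired libraries. The deviations of libraries 1, 2 and 3 from their group means correlated between groups at -0.07, 0.25 and 0.12. With 3 libraries per group these values cannot decide whether the libraries were paired. With the replicate number as a block, 2 members were higher and 2 lower, with Asns added at a Benjamini-Hochberg adjusted p of 0.0431 by edgeR, and 2101 genes were higher and 2309 lower. Phgdh and Asns had fewer than 50 counts in each XHT library, Trib3 in each MOD library, Chac1 in all 6, Psat1 in 4 and Psph in 1, which limits the precision of their folds.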
